A study of Mus musculus with 17 samples.

Results

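The genes described here are 33 genes of cholesterol and fatty acid synthesis, chosen by symbol from a fixed list of the SREBP pathway and its enzymes, out of 24453 gene models in the deposited RPKM table. All 33 were found, each as 1 model. RPKM is a read count scaled to exon length and library depth. In every comparison 32 of them were tested, and Idi1, which stayed under a mean of 1 RPKM, was not. The list was set by symbol, with no threshold on measured values.

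PolyA RNA-seq was done on mouse macrophages from 2 sources. The first were bone marrow-derived macrophages that had been immortalised (iBMDMs, C57Bl/6EiJ, male by label, passage 3-8) with a retrovirus carrying Myc and BRAF V600E. They expressed Cas9, and all were labelled as vehicle, although the control titles carry zsGreen in the place of Veh. Lentivirus brought 2 guides per target, and cells were sorted on a viral marker, so that each line is a sorted pool. The 4 iBMDM groups were a control with the genotype label Scramble, Atf3KO, JunKO and JunDKO (guides to Jund), each in 2 libraries. The second were primary peritoneal macrophages elicited with thioglycollate (TGEMs) from 8-week-old mice labelled male. They were given PBS as vehicle or KLA (Kdo2 lipid A, which activates TLR4) for 1 h. There was 1 library of each treatment from C57Bl/6EiJ, whereas Balb/cJ had 2 with KLA and 1 with vehicle. The 3 comparisons with Scramble share its 2 libraries. The study speaks of 2 replicate experiments for its expression test of the knockouts. Since separate cultures are not stated, p-values measure only the spread between these libraries. The comparisons asked how the genes differed when the AP-1 members Atf3, Jun or Jund were targeted, after KLA, between strains and between the 2 kinds of macrophage.

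SREBPs are transcription factors held in the endoplasmic reticulum as inactive precursors. When membrane sterol is low, the escort protein Scap carries them to the Golgi for cleavage, and the released fragment enters the nucleus and switches on sterol and fatty acid genes, whereas the Insig proteins retain Scap when sterol is plentiful. Srebf2 encodes the form that mainly drives cholesterol synthesis and Srebf1 those that mainly drive fatty acid synthesis. In macrophages these enzymes supply membrane lipid, and part of the fatty acid branch is also regulated by the oxysterol receptor LXR.

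Promoter sequence (RefSeq, build GRCm38.p6, 250 bases before and 50 after the start) was found for 26 of the 33 genes at the start of their table model, and 6 motifs were searched on both strands. The CCAAT box (CCAAT) was present in 19 of the 26 (73.1%), against 37.4% of 32851 RefSeq promoters of the same length, and the GC box (GGGCGG) in 20 (76.9%) against 35.7%. The E-box (CACGTG) was present in 5 (19.2%) against 7.15%. The sterol regulatory element TCACNCCAC was found in Hmgcs1 alone among the 26 (3.85%), against 1.24% of all promoters. Of the AP-1 motifs, TGANTCA was found in Msmo1 (3.85% against 7.81%) and TGACGTCA in Elovl5 (3.85% against 1.79%). These matches describe letters and not bound sites. A CCAAT box can be read on both strands at once where it runs into its complement, as in Fasn. The 150 bases before the start are printed 5′ to 3′ on the gene's strand, with every motif match in capitals. Shown are Hmgcs1, which held the sterol element, Cyp51 and Pmvk, which rose in each of the 3 targeted lines, Msmo1, which held TGANTCA, and Fasn, which was among the genes that differed most between iBMDMs and TGEMs.
Hmgcs1, chr13:119690201-119690350, plus strand: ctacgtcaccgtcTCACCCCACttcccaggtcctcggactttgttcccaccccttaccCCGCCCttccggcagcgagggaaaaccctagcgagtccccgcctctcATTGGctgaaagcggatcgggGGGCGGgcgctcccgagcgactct
Cyp51, chr5:4104698-4104847, minus strand: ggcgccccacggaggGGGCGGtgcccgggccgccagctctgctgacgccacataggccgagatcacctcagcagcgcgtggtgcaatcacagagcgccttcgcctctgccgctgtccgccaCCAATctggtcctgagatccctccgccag
Pmvk, chr3:89454391-89454540, plus strand: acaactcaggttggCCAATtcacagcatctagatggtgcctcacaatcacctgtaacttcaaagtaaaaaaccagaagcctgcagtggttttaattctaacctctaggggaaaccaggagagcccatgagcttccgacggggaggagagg
Msmo1, chr8:64733579-64733728, minus strand: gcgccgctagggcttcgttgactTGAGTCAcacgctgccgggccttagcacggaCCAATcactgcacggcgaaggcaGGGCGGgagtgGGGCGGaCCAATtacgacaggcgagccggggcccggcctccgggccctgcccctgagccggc
Fasn, chr11:120824548-120824697, minus strand: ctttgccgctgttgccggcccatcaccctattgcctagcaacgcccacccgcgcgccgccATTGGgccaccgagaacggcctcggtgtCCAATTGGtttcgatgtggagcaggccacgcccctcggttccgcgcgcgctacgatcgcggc
In Hmgcs1 the sterol element began 137 bases before the start and a CCAAT box 45 bases before it. The CCAAT box of Cyp51 began 29 bases before the start and that of Pmvk 136 bases before it. In Msmo1 TGANTCA began 127 bases before the start, ahead of CCAAT boxes at 96 and 55 bases.

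Library depth spanned 1553296 to 18444437 reads. The Scramble libraries were among the shallow ones, with 1929988 and 1711541 reads, and JunDKO replicate 2 was the deepest. The targeted transcripts were not lower than Scramble in the libraries labelled Atf3KO and JunKO. Scramble had 80.7 and 77.4 RPKM of Atf3, and the Atf3KO label went with 154 and 169. For Jun, Scramble had 17.6 and 18.5 RPKM and the JunKO label 26.2 and 20.5. For Jund, Scramble had 9.19 and 8.33 RPKM and the JunDKO label 6.94 and 6.07. Exonic RPKM still counts transcripts with small edits, so these levels do not check the protein, and groups keep the names on their labels here. The libraries labelled Atf3KO held reads of 10425 and 10631 models, while the remaining 6 iBMDM libraries held 11884 to 12533, and Atf3KO replicate 2 carried another date in its title than the other 7. The TGEM libraries, although labelled male, held 863 to 8676 reads of Xist, and the iBMDM libraries, also labelled male, 0 to 3. All 8 macrophage markers examined exceeded 1 RPKM in both kinds of cell, but the levels of several differed widely between TGEMs and iBMDMs. The GC content of the 33 genes' exons was 41.5% to 59.5% with a median of 49.5%, close to the 49.2% of all models.

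**Figure D1:**
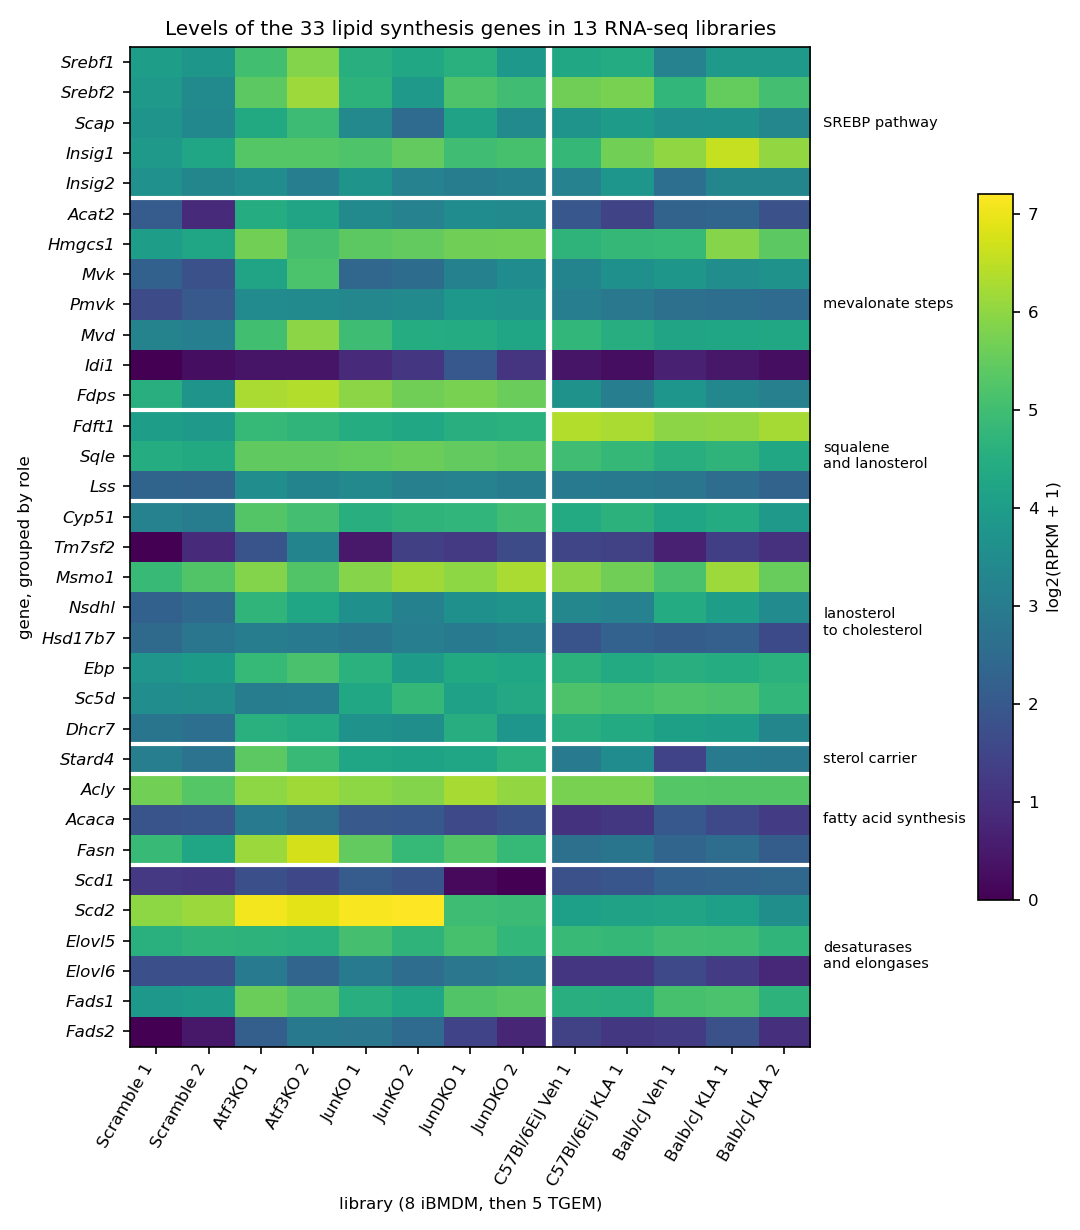
Level of each of the 33 genes (rows, grouped by role) in each of the 13 libraries (columns, iBMDMs left and TGEMs right of the white line), as log2(RPKM + 1) in colour. The 2 Scramble columns are the darkest of the iBMDM columns for most sterol genes, and Scd2 is brightest in the libraries labelled Atf3KO and JunKO.

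In Scramble iBMDMs the most abundant of the genes was Scd2 (62.5 and 68.9 RPKM), a stearoyl-CoA desaturase that makes monounsaturated fatty acids. It was followed by Acly (49.6 and 38.4 RPKM), which cleaves citrate to cytosolic acetyl-CoA, and by the sterol methyl oxidase Msmo1 (27.7 and 36.7 RPKM). The ranges of Acly and Msmo1 lay close together, whereas Scd2 stood above both in each library. At the other end Idi1, the isomerase that makes dimethylallyl diphosphate, had 0 and 1 reads, and Fads2, the delta-6 desaturase, also had 0 and 1. A count of 0 in Scramble replicate 1 allows up to 0.544 RPKM of Idi1, 1.04 of Fads2 and 1.06 of the sterol reductase Tm7sf2. The 33 genes summed to 426 and 404 RPKM in Scramble, 1015 and 1084 in the libraries labelled Atf3KO, 826 and 772 in JunKO, 752 and 718 in JunDKO, and 559 to 694 in TGEMs. For 25 of the 32 tested genes (78.1%) the lowest of the 8 iBMDM libraries was a Scramble library, against 25.3% of the 10691 models tested.

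Most of the sterol genes were higher in the libraries labelled Atf3KO than in Scramble. Of the 32 genes tested 26 rose and 0 fell at an adjusted p under 0.05 (limma-trend on log2(RPKM + 1), Benjamini-Hochberg over all 10691 models), where 20.7% of all models rose and 20.6% fell. The median log2 fold change of the 32 genes was 1.24, against 0.05 over all models. All 6 tested mevalonate enzymes rose, as did all 3 enzymes from squalene to lanosterol and all 3 of fatty acid synthesis, and 4 of 5 SREBP pathway genes, 5 of 8 enzymes from lanosterol to cholesterol and 4 of 6 desaturases and elongases.

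Several of the largest rises were in mevalonate steps. Mvk, mevalonate kinase, measured 3.69 and 2.43 RPKM in Scramble, and the Atf3KO label went with 17.6 and 35.2. Its log2 fold change was 2.69 ± 0.33 (SE, limma adjusted p = 0.00116). Mvd, which decarboxylates mevalonate diphosphate, measured 31.3 and 60.5 RPKM against 8.29 and 7.68, and rose by 2.31 ± 0.31 (limma adjusted p = 0.00159). For Mvk and Mvd the groups did not overlap, although replicate 2 stood well above replicate 1. Fdps, which makes farnesyl diphosphate, measured 78.0 and 81.7 RPKM against 22.3 and 12.3, and rose by 2.20 ± 0.27 (limma adjusted p = 0.00108). Here the replicates of the line lay close together. Acat2, the cytosolic thiolase that begins the pathway, measured 21.0 and 17.4 RPKM against 3.26 and 0.849, with 13 and 3 reads in Scramble, and its log2 fold change was 2.84 ± 0.36 (limma adjusted p = 0.00126). Acat2 is uncertain, since it shares 48.9% of its 50-base words with its neighbour Acat3, whose own difference was 0.38 ± 0.24 (limma adjusted p = 0.221).

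Among the later enzymes Nsdhl, a sterol dehydrogenase, measured 25.1 and 18.1 RPKM against 3.75 and 4.50 in Scramble, a log2 rise of 2.13 ± 0.24 (limma adjusted p = 0.000839). Cyp51, the lanosterol demethylase, measured 37.7 and 32.4 RPKM against 8.24 and 7.27, and rose by 2.04 ± 0.19 (limma adjusted p = 0.000366). Stard4, which carries sterol between membranes, measured 40.7 and 27.8 RPKM against 7.48 and 5.69, and rose by 2.20 ± 0.25 (limma adjusted p = 0.000805). For these 3 genes the lowest library of the line stood more than the whole Scramble range above Scramble. Tm7sf2, a sterol reductase, had 17 and 90 reads against 0 and 2 in Scramble, a ratio of read rates of 16.7 with an exact 95% counting interval of 4.52 to 140.1. Fads2 had 23 and 71 reads against 0 and 1, a ratio of 29.4 (interval 5.15 to 1174). Without Scramble replicate 1 these ratios were 7.87 and 13.8, and without Scramble replicate 2, which leaves 0 reads, at least 5.92 and 5.20. Without Atf3KO replicate 2 the ratio of Tm7sf2 was 7.04 (1.67 to 62.8), and the interval of Fads2 ran from 3.09 to 785. These intervals cover counting error only. Both transcription factors rose, with Srebf2 at 41.1 and 69.4 RPKM against 13.6 and 9.89 (2.11 ± 0.34, limma adjusted p = 0.00275), and Srebf1 at 31.6 and 57.5 against 15.3 and 13.1 (1.53 ± 0.33, limma adjusted p = 0.00875). The remaining genes that rose lay between Acly (0.60 ± 0.19) and Fasn (1.86 ± 0.32).

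The 6 tested genes that did not pass were Msmo1, Scd1, Hsd17b7, Elovl5, Insig2 and Sc5d. Sc5d, the desaturase that acts late in the pathway, measured 7.31 and 7.46 RPKM against 10.6 and 10.7 in Scramble, a log2 difference of -0.48 with a 95% interval of -0.97 to 0.02. Elovl5, a fatty acid elongase, differed by -0.02 (interval -0.50 to 0.47). With each of the 4 libraries left out in turn, 20 to 23 genes passed. Across 10591 models the fold changes of this comparison rose with GC content (Spearman's rho 0.501), and with that trend removed 27 of the 32 genes passed.

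**Figure D2:**
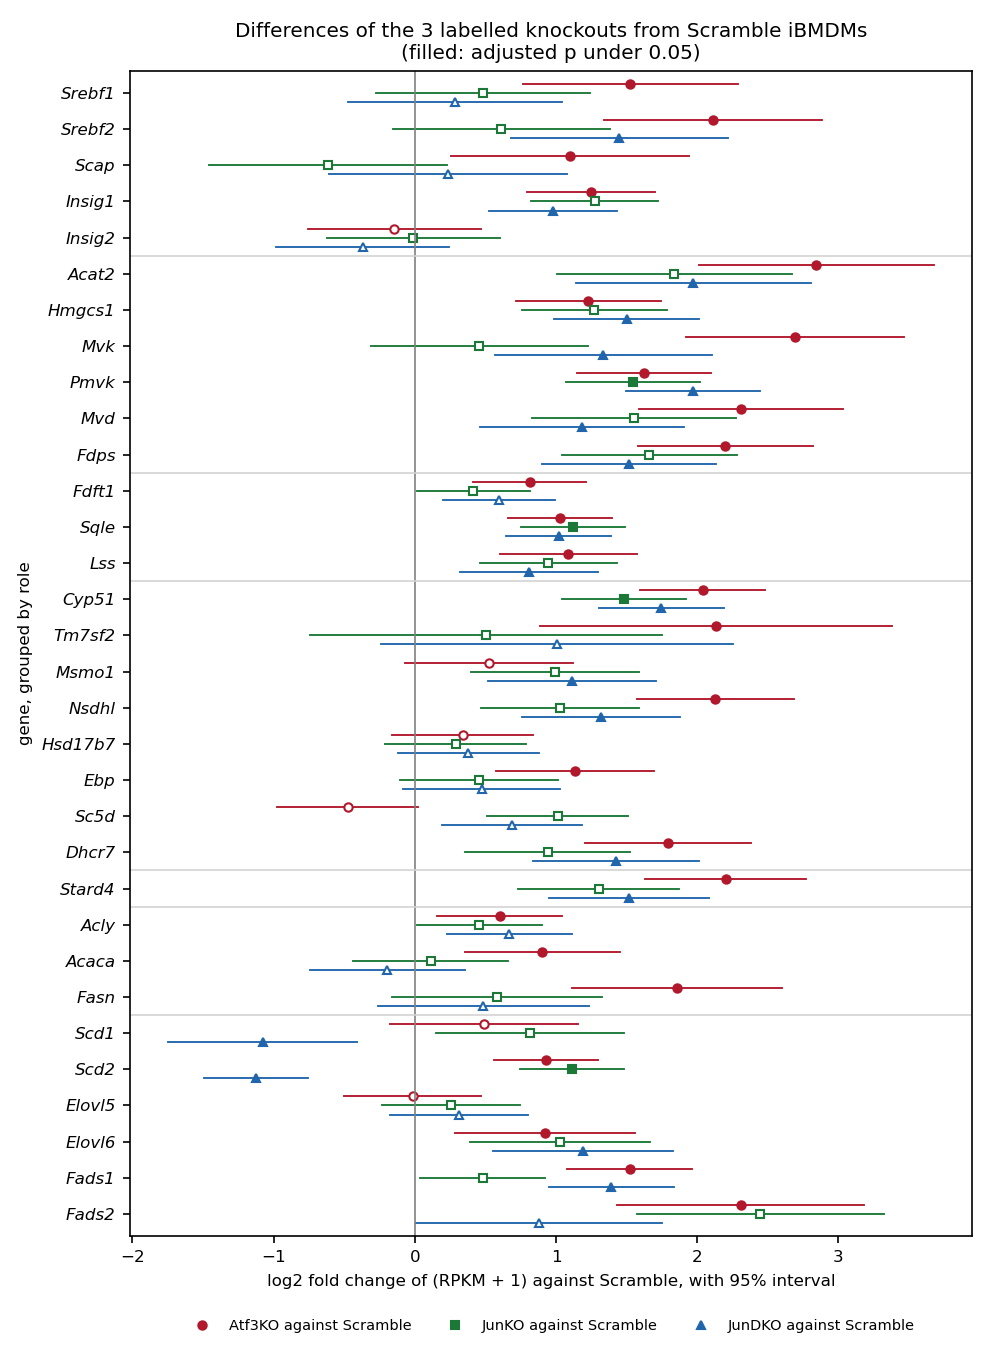
Log2 fold change of (RPKM + 1) with 95% interval for each of 32 genes (rows, grouped by role) in the libraries labelled Atf3KO (circles), JunKO (squares) and JunDKO (triangles) against the same 2 Scramble libraries, filled where the limma adjusted p is under 0.05. Most points lie right of 0 in all 3 comparisons, and the JunDKO triangles of Scd1 and Scd2 lie left of it.

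In the libraries labelled JunKO fewer differences passed, but nearly all lay in the same direction. Of 32 genes 4 rose and 0 fell, where 0.159% of 10691 models rose and 0.122% fell. The log2 difference was above 0 for 30 of the 32, with a median of 0.94 against 0.01 over all models, and 21 had an unadjusted p under 0.05, as did 842 of all models. Pmvk, phosphomevalonate kinase, measured 9.05 and 9.60 RPKM against 2.13 and 3.00 in Scramble, and rose by 1.54 ± 0.21 (limma adjusted p = 0.0432). Cyp51 measured 21.9 and 25.0 RPKM against 8.24 and 7.27, and rose by 1.48 ± 0.19 (limma adjusted p = 0.0398). Sqle, squalene epoxidase, measured 44.4 and 46.9 RPKM against 21.2 and 19.7, and rose by 1.12 ± 0.16 (limma adjusted p = 0.0444). Scd2 measured 139.9 and 147 RPKM against 62.5 and 68.9, and rose by 1.11 ± 0.16 (limma adjusted p = 0.0444). In each of these 4 genes the groups were separated by more than either group's range. These calls stood near the threshold. With Scramble replicate 1 left out the test called 2 genes. With any 1 of JunKO replicate 1, JunKO replicate 2 and Scramble replicate 2 left out it called 0, while with GC content removed it called 11.

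Among the genes that did not pass in the libraries labelled JunKO, Insig1, the retention protein that is itself an SREBP target, measured 36.2 and 43.3 RPKM against 13.7 and 18.1 (log2 1.27 ± 0.20, limma adjusted p = 0.0574). Fdps measured 61.4 and 48.7 RPKM against 22.3 and 12.3 (1.66 ± 0.27, limma adjusted p = 0.0681). Fads2 had 16 and 12 reads against 0 and 1, a ratio of read rates of 29.8 (exact 95% counting interval 4.93 to 1220). It was 14.0 without Scramble replicate 1 and at least 5.27 without Scramble replicate 2. The transcription factors themselves were less apart, with Srebf2 at 24.4 and 13.6 RPKM against 13.6 and 9.89, and Srebf1 at 21.9 and 18.6 against 15.3 and 13.1. Scap differed by -0.61 (95% interval -1.46 to 0.23). The 8 macrophage markers summed to 30668 to 30982 RPKM in JunKO against 22262 to 23819 in Scramble, mostly Lyz2. Itgam, Mertk and Fcgr1 were higher too, and Adgre1, Csf1r, Cd68 and Spi1 overlapped. The neutrophil marker S100a8 was lower, at 22.7 and 24.1 RPKM against 34.8 and 33.2. The part of these markers in the result was not tested.

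In the libraries labelled JunDKO 12 of the 17 tested enzymes of cholesterol synthesis rose, and the stearoyl-CoA desaturases Scd1 and Scd2 fell. Of 32 genes 17 rose and 2 fell, where 6.93% of 10691 models rose and 4.82% fell. The median log2 fold change was 0.99, against 0.23 over all models. All 6 tested mevalonate enzymes rose, with 2 of the 3 from squalene to lanosterol, 4 of 8 from lanosterol to cholesterol, Stard4, and Srebf2 and Insig1 of the SREBP pathway. Of the 3 genes of fatty acid synthesis 0 passed, with Fasn at 37.5 and 27.6 RPKM against 28.0 and 18.3 and Acaca, acetyl-CoA carboxylase, at 2.01 and 2.52 against 2.65 and 2.80. The desaturases and elongases were divided, with Fads1 and Elovl6 rising and Scd1 and Scd2 falling.

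Pmvk measured 13.2 and 12.5 RPKM against 2.13 and 3.00 in Scramble, and rose by 1.97 ± 0.21 (limma adjusted p = 0.000813). Cyp51 measured 25.8 and 31.0 RPKM against 8.24 and 7.27, a rise of 1.74 ± 0.19 (limma adjusted p = 0.00104) that passed in all 17 alternative settings. Hmgcs1, the HMG-CoA synthase whose promoter holds the sterol element printed above, measured 49.2 and 50.0 RPKM against 15.5 and 18.3, and rose by 1.50 ± 0.22 (limma adjusted p = 0.00434). These 3 genes were nearly the same in both libraries of the line, although these were the shallowest and the deepest library of the series. Fdps measured 52.7 and 46.3 RPKM against 22.3 and 12.3 (1.52 ± 0.27, limma adjusted p = 0.00925). Stard4 measured 17.9 and 23.5 RPKM against 7.48 and 5.69 (1.52 ± 0.25, limma adjusted p = 0.00648). Srebf2 measured 36.1 and 30.8 RPKM against 13.6 and 9.89 (1.45 ± 0.34, limma adjusted p = 0.0285), whereas Srebf1 at 22.8 and 13.3 against 15.3 and 13.1 did not pass. Dhcr7, which catalyses a last step to cholesterol, measured 21.6 and 12.7 RPKM against 5.91 and 5.21 (1.42 ± 0.26, limma adjusted p = 0.00981). Acat2, uncertain for the reason given above, measured 10.3 and 9.74 RPKM against 3.26 and 0.849 (1.97 ± 0.36, limma adjusted p = 0.0109). Idi1 had 13 and 62 reads against 0 and 1 in Scramble, a ratio of read rates of 13.7 (exact 95% counting interval 2.38 to 547). It was 30.5 without JunDKO replicate 2, 6.42 without Scramble replicate 1 and at least 2.41 without Scramble replicate 2. No Scramble library reached the lower JunDKO library in any of these genes but Srebf1.

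Scd2 stood at 62.5 and 68.9 RPKM in Scramble and at 30.0 and 29.0 with the JunDKO label, and fell by 1.13 ± 0.16 on the log2 scale (limma adjusted p = 0.00347). This call was kept in all 17 alternative settings. Scd1, the related desaturase on the same chromosome, had 1 and 0 reads in the JunDKO libraries against 12 and 10 in Scramble, although JunDKO replicate 2 was the deepest library. The read rate in Scramble was 121 times that in JunDKO, with an exact 95% counting interval of 19.5 to 4986. This ratio rests on JunDKO replicate 2, and without that library it was 9.38 (1.52 to 387). Without JunDKO replicate 1 it was at least 37.1, taking 3 reads for the count of 0. A count of 0 in JunDKO replicate 2 allows up to 0.0337 RPKM. The fitted difference of Scd1 was -1.08 ± 0.29 (limma adjusted p = 0.0487), and this call was kept in 6 of 15 alternative settings. Scd1 and Scd2 share 2.44% of their 50-base words. For the whole comparison, the number of genes that passed was 9 and 8 without Scramble replicates 1 and 2, and 5 and 6 without JunDKO replicates 1 and 2. With library medians made equal, which moved the median of all models from 0.23 to -0.04, the median of the genes was 0.72 and 10 rose and 2 fell. Of the 5 neutrophil markers S100a8 was at 0 in both JunDKO libraries and at 34.8 and 33.2 RPKM in Scramble, and the other 4 were at 0 in all 8 iBMDM libraries. The 8 macrophage markers summed to 16835 to 17393 RPKM in JunDKO against 22262 to 23819, a sum made mostly of Lyz2 (15109 and 14815 against 21520 and 20190 RPKM). Itgam and Adgre1 were lower in JunDKO too, whereas Csf1r, Cd68, Mertk and Fcgr1 were higher in both JunDKO libraries than in either Scramble library. The part of these differences in the result was not tested.

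The JunDKO line was also compared with each of the other 2 targeted lines, by contrasts within the same fit of 8 iBMDM libraries. Against the libraries labelled JunKO, those labelled JunDKO differed at 4 of 32 genes, all of them fatty acid desaturases, of which 1 rose and 3 fell, where 4.33% of 10691 models rose and 3.81% fell. Scd2 measured 30.0 and 29.0 RPKM in JunDKO against 139.9 and 147 in JunKO, and fell by 2.24 ± 0.16 on the log2 scale (limma adjusted p = 0.000176). Scd1 had 1 and 0 reads against 27 and 22, so that the read rate in JunKO was 287 times that in JunDKO (exact 95% counting interval 49.1 to 11549), or 22.3 times (3.81 to 897) without JunDKO replicate 2 and at least 88.1 times without JunDKO replicate 1. Fads2 measured 1.72 and 0.726 RPKM against 6.28 and 4.69, and fell by 1.57 ± 0.38 (limma adjusted p = 0.0423). Fads1, the delta-5 desaturase that lies beside Fads2, measured 36.8 and 39.8 RPKM against 21.8 and 18.1, and rose by 0.91 ± 0.19 (limma adjusted p = 0.0255). Fads1 and Fads2 thus moved in opposite directions. None of the 26 tested genes outside the desaturases and elongases passed (limma), of which 3 had an unadjusted p under 0.05, against 2661 of all 10691 models, and their median was 0.13 against 0.23 over all models. With library medians made equal the median of the 32 genes turned from 0.10 to -0.14 and that of all models from 0.23 to -0.02, so the genes lay below all models under both scalings. With any 1 of the 4 libraries left out 2 genes passed, and both were among those that fell. The macrophage markers summed to 16835 to 17393 RPKM in JunDKO against 30668 to 30982 in JunKO, again mostly Lyz2. Adgre1, Itgam and Fcgr1 were also lower in JunDKO, whereas Csf1r and Mertk were higher and Cd68 and Spi1 overlapped. The neutrophil marker S100a8 was at 0 against 22.7 and 24.1 RPKM. The other 4 neutrophil markers were at 0 in both lines, and the part of these markers in the result was not tested.

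Against the libraries labelled JunDKO, those labelled Atf3KO were higher at 9 of 32 genes and lower at 1, where 14.9% of 10691 models were higher and 25.9% lower. Scd2 measured 134 and 119 RPKM against 30.0 and 29.0, a difference of 2.05 ± 0.16 (limma adjusted p = 0.000134), and Scd1 had 50 and 69 reads against 1 and 0, a ratio of read rates of 205 (exact 95% counting interval 36.0 to 8146). Without JunDKO replicate 2 that ratio was 15.9 (2.80 to 633), and without JunDKO replicate 1 at least 62.9. Fatty acid synthase, Fasn, measured 68.5 and 105 RPKM against 37.5 and 27.6 (1.37 ± 0.32, limma adjusted p = 0.0117). Acaca measured 6.66 and 5.34 RPKM against 2.01 and 2.52 (1.10 ± 0.24, limma adjusted p = 0.00845). Srebf1 measured 31.6 and 57.5 RPKM against 22.8 and 13.3 (1.24 ± 0.33, limma adjusted p = 0.0187). Of the 9 fatty acid enzymes 5 were higher in the libraries labelled Atf3KO, whereas Acly (-0.07), Elovl6 (-0.27), Elovl5 (-0.33) and Fads1 (0.13) did not pass. Of the mevalonate enzymes Mvk, at 17.6 and 35.2 RPKM against 8.03 and 10.3 (1.36 ± 0.33, limma adjusted p = 0.014), and Mvd, at 31.3 and 60.5 against 20.6 and 18.3 (1.13 ± 0.31, limma adjusted p = 0.0224), were higher too. Fads2 measured 3.50 and 6.57 RPKM against 1.72 and 0.726 (1.43 ± 0.38, limma adjusted p = 0.0188). Nsdhl was the remaining gene (0.81 ± 0.24, limma adjusted p = 0.0295). The single gene lower in the libraries labelled Atf3KO was Sc5d, at 7.31 and 7.46 RPKM against 16.4 and 19.3 (-1.16 ± 0.22, limma adjusted p = 0.00432). Sqle differed by 0.01 (95% interval -0.36 to 0.38). The exons of Fasn, Srebf1, Mvk and Mvd held 58.1% to 59.5% GC. Over the alternative settings their lowest log2 differences were 0.79, 0.64, 0.67 and 0.45. The lowest was 0.60 for Acaca (49.2% GC) and 1.92 for Scd2 (49.5% GC). Fold changes rose with GC content here as well (Spearman's rho 0.452 across 10591 models), and with that trend removed 12 genes passed. Without Atf3KO replicate 2 or JunDKO replicate 1 the number was 6, and without JunDKO replicate 2 it was 4. The macrophage marker sums were 23901 to 33035 RPKM in the libraries labelled Atf3KO and 16835 to 17393 in JunDKO, again mostly Lyz2. Adgre1, Itgam and Spi1 were also higher in the libraries labelled Atf3KO, whereas Mertk was lower and Csf1r, Cd68 and Fcgr1 overlapped. The neutrophil marker S100a8 was at 41.1 and 21.8 RPKM against 0, and the other 4 neutrophil markers were at 0 in both lines. The part of these markers in this result was not tested.

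**Figure D3:**
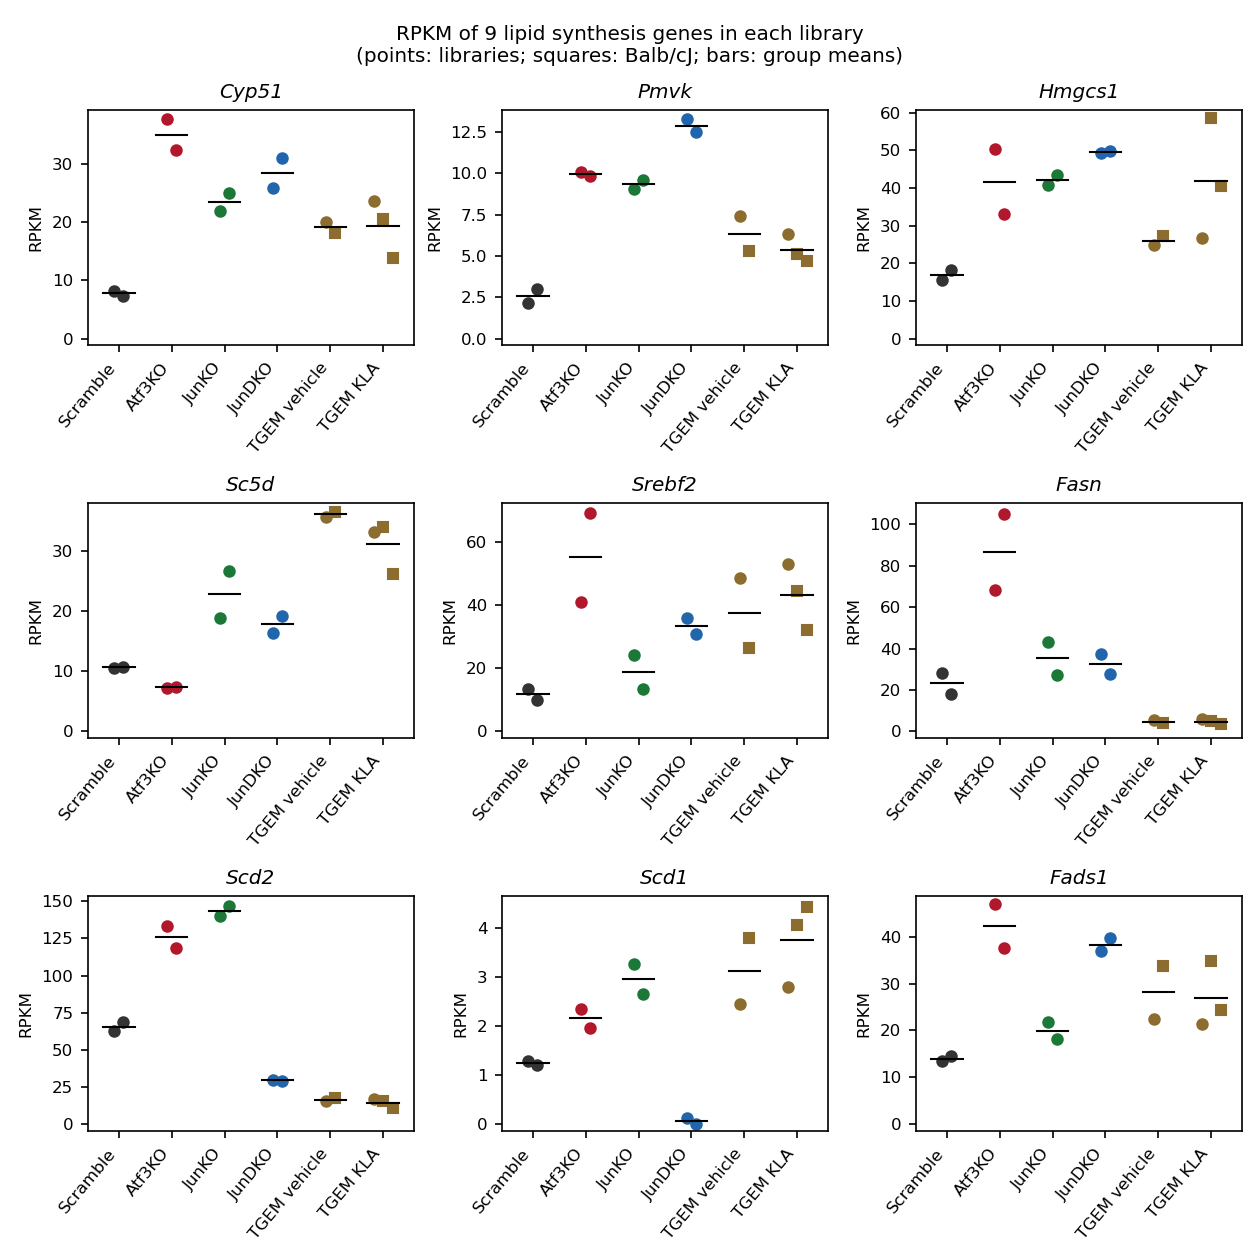
RPKM of 9 of the genes in each library (points, squares for Balb/cJ) by group, with bars at the group means. Cyp51, Pmvk and Hmgcs1 are lowest in both Scramble libraries, Sc5d and Srebf2 are not highest in the same line, Fasn is lowest in TGEMs, and Scd1 is near 0 in the 2 JunDKO libraries.

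Of 21 further genes of lipid synthesis that supply acetyl-CoA, reducing power, elongation, SREBP processing or sterol esterification, all tested, 6 rose and 3 fell in the libraries labelled Atf3KO, 0 passed in JunKO (4 at an unadjusted p under 0.05) and 2 rose and 2 fell in JunDKO. The shares of all models that rose and fell were 20.7% and 20.6% for Atf3KO, 0.159% and 0.122% for JunKO, and 6.93% and 4.82% for JunDKO. The medians of the 21 genes were 0.03, 0.14 and 0.39, against 0.05, 0.01 and 0.23 over all models. Tmem97, a sterol-responsive membrane protein, averaged 76.7 RPKM in the libraries labelled Atf3KO against 16.6 in Scramble (2.14 ± 0.20, limma adjusted p = 0.000361). Acss2, the cytosolic acetyl-CoA synthetase, which is also an SREBP target, lay the other way, at 1.42 RPKM against 15.7 (-2.79 ± 0.30, limma adjusted p = 0.000624). In the libraries labelled JunDKO Acss2 averaged 1.09 RPKM (-3.04 ± 0.30, limma adjusted p = 0.000637), and Me1, the malic enzyme that supplies NADPH, 1.86 against 9.32 (-1.84 ± 0.22, limma adjusted p = 0.00172). In the libraries labelled JunKO Acss2 averaged 5.82 RPKM, which did not pass (limma adjusted p = 0.2), nor did Tmem97 at 28.9 (limma adjusted p = 0.304).

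Of 7 genes of LXR and its targets 1 rose and 4 fell in the libraries labelled Atf3KO, 0 passed in JunKO (3 at an unadjusted p under 0.05, as for 842 of 10691 models), and 3 fell in JunDKO. The shares of all models that rose and fell were those given for the 21 genes, with 20.6% falling in Atf3KO and 4.82% in JunDKO. The sterol exporter Abca1 averaged 10.9 RPKM in the libraries labelled Atf3KO against 36.5 in Scramble (-1.66 ± 0.18, limma adjusted p = 0.000642), and Mylip, which degrades lipoprotein receptors, 6.28 against 14.6 (-1.10 ± 0.21, limma adjusted p = 0.00526). In the libraries labelled JunDKO Abcg1, another exporter, averaged 6.26 RPKM against 33.5 (-2.24 ± 0.23, limma adjusted p = 0.000724), and Mylip 6.26 against 14.6 (-1.12 ± 0.21, limma adjusted p = 0.0116). In JunKO Mylip averaged 8.75 RPKM and Abcg1 19.9, and neither passed (limma adjusted p = 0.39 and 0.404). Between JunDKO and JunKO, where 3.81% of all models fell, 2 of the 21 lipid genes fell, Me1 (-1.44 ± 0.22) and Acss2 (-1.75 ± 0.30), and 2 of the 7 LXR genes, Abcg1 (-1.51 ± 0.23) and Pltp (-2.22 ± 0.43). Between Atf3KO and JunDKO 5 and 3 of the 21 were higher and lower in the libraries labelled Atf3KO (14.9% and 25.9% of all models), led by Me1 (1.79 ± 0.22) and Tmem97 (1.56 ± 0.20), and of the 7 LXR genes 3 and 2, led by Pltp (2.99 ± 0.43) and Lpcat3 (-1.51 ± 0.22).

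TGEMs of both strains under vehicle had higher levels of many sterol enzymes than Scramble iBMDMs, and far less Fasn and Scd2. Of 32 genes 14 were higher and 3 lower, where 12.5% of 10894 models were higher and 28.6% lower. The median log2 difference of the genes was 0.62, against -0.34 over all models, and with library medians made equal these were 0.93 and -0.04 and 19 genes passed. Fold changes rose with GC content (Spearman's rho 0.330 across 10786 models), and with that trend removed 16 genes passed. Cell source, immortalisation, culture, title date and Xist level all differ between these groups and cannot be told apart. Nsdhl and Ebp, both higher in TGEMs, lie on the X chromosome. In such bulk samples fewer cells of a type and less RNA per cell also cannot be told apart.

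Sc5d measured 35.8 RPKM in the C57Bl/6EiJ and 36.6 in the Balb/cJ vehicle library, against 10.6 and 10.7 in Scramble (log2 1.67 ± 0.23, limma adjusted p = 0.000566). Dhcr7 measured 22.4 and 16.0 RPKM against 5.91 and 5.21 (1.61 ± 0.28, limma adjusted p = 0.00233). Both act at the end of cholesterol synthesis, and in both genes the TGEM libraries lay well above Scramble. Srebf2 measured 48.7 and 26.4 RPKM against 13.6 and 9.89 (1.55 ± 0.39, limma adjusted p = 0.0131). Insig1 measured 26.7 and 64.0 RPKM against 13.7 and 18.1 (1.34 ± 0.36, limma adjusted p = 0.0174). Nsdhl measured 9.13 and 20.7 RPKM against 3.75 and 4.50 (1.54 ± 0.36, limma adjusted p = 0.00923). For these 3 genes the vehicle libraries of the strains were themselves far apart. Mvk measured 8.49 and 12.9 RPKM against 3.69 and 2.43 (1.52 ± 0.36, limma adjusted p = 0.00924), and Mvd 26.4 and 17.3 against 8.29 and 7.68 (1.32 ± 0.34, limma adjusted p = 0.0149).

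Fdft1, squalene synthase, differed most, at 82.1 and 61.4 RPKM against 15.3 and 14.0 (2.20 ± 0.21, limma adjusted p = 0.000105). It shares 774 of its 3685 exonic bases with Ctsb on the opposite strand of chromosome 14, and a strand setting of the counting was not stated. Ctsb, a lysosomal protease, averaged 3521 RPKM in the vehicle TGEMs and 734 in Scramble (2.26 ± 0.20, limma adjusted p = 7.29e-05), and its part in the Fdft1 value was not tested. Without that gene the other steps from squalene to lanosterol did not pass, with Sqle at 31.1 and 22.3 RPKM against 21.2 and 19.7, and Lss, lanosterol synthase, at 6.90 and 6.16 against 4.03 and 3.89 (0.60 ± 0.22, limma adjusted p = 0.0572).

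Fasn measured 5.36 and 4.14 RPKM in the vehicle TGEMs against 28.0 and 18.3 in Scramble, and fell by 2.05 ± 0.34 on the log2 scale (limma adjusted p = 0.00165). Scd2 measured 15.7 and 17.4 RPKM against 62.5 and 68.9, and fell by 1.93 ± 0.19 (limma adjusted p = 0.000113). For each gene the gap between the groups was wider than the range within either, and both calls were kept in all 15 alternative settings. Hsd17b7, a ketosteroid reductase of the sterol pathway, measured 2.69 and 3.37 RPKM against 4.66 and 6.15, and its call (-0.66 ± 0.23, limma adjusted p = 0.0488) was kept in 3 of 15. Scd1 was higher in TGEMs, at 2.45 and 3.80 RPKM against 1.29 and 1.21 (0.86 ± 0.29, limma adjusted p = 0.0426), so that the 2 desaturases lay in opposite directions. Fads1 (0.93 ± 0.25) and Fads2 (1.12 ± 0.37) were higher too, the latter against 0 and 1 reads in Scramble. The number of genes past the threshold was 9 without Scramble replicate 1 and 9 without Scramble replicate 2. It was 10 on recovered reads with limma-voom. The 8 macrophage markers summed to 8015 to 11011 RPKM in TGEMs against 22262 to 23819 in Scramble, mostly Lyz2. Adgre1 (31.1 to 72.3 against 669 and 744 RPKM), Itgam, Csf1r and Fcgr1 were lower too. Cd68 (1404 to 4050 against 467 and 353 RPKM) and Mertk were higher, and Spi1 overlapped. Markers of B cells, mast cells and mesothelial cells or fibroblasts were present in the 5 TGEM libraries and near 0 in the 8 iBMDM libraries. The 4 B cell markers summed to 10.1 to 23.9 RPKM in TGEMs and 0 to 0.488 in iBMDMs, the 3 mast cell markers to 1.78 to 18.3 and 0 to 0.549, and the 5 mesothelial and fibroblast markers to 36.4 to 73.9 and 0 to 0.426. The 5 adipocyte markers summed to 0 to 0.919 RPKM in TGEMs, with Adipoq and Cidec at 0 in every library, the 3 T cell markers to 0 to 0.519, and the 2 eosinophil markers to 0 to 0.16. Of the 5 neutrophil markers S100a8 lay the other way, at 0.794 to 13.2 RPKM in TGEMs and 33.2 to 34.8 in Scramble, while Mpo and Elane were each seen in 1 TGEM library at under 1 RPKM and S100a9 and Ly6g were at 0 throughout. The list summed to 0.794 to 13.4 RPKM in TGEMs, and the part of these cells and markers in the result was not tested.

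Of the 21 further lipid genes 6 were higher and 7 lower in vehicle TGEMs, where 12.5% of all models were higher and 28.6% lower. They were led by Me1 at 0.44 RPKM against 9.32 (-2.83 ± 0.24, limma adjusted p = 6.28e-05) and the phosphatidate phosphatase Lpin1 at 8.49 against 0.635 (2.56 ± 0.32, limma adjusted p = 0.000395). Of the 7 LXR genes 4 were higher and 2 lower, led by the phospholipid transfer protein Pltp at 330.0 RPKM against 9.57 (4.94 ± 0.46, limma adjusted p = 9.12e-05) and Abca1 at 13.8 against 36.5 (-1.56 ± 0.43, limma adjusted p = 0.0187).

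**Figure D4:**
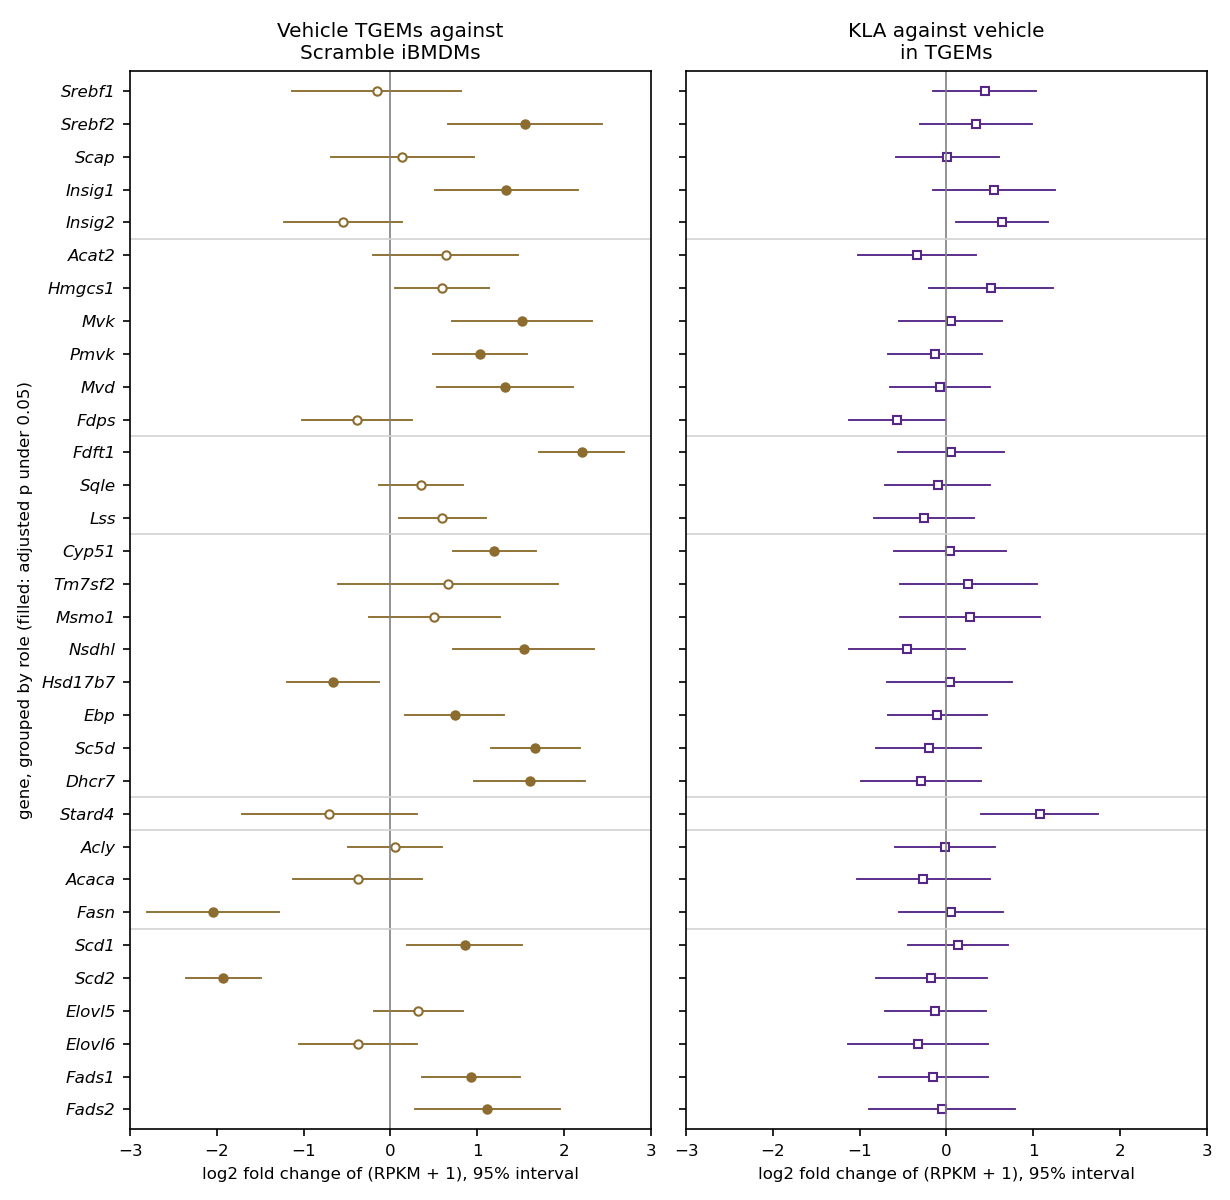
Log2 fold change of (RPKM + 1) with 95% interval for each of 32 genes (rows, grouped by role), left for vehicle TGEMs against Scramble iBMDMs and right for KLA against vehicle in TGEMs, filled where the limma adjusted p is under 0.05. On the left Fdft1 and Sc5d lie furthest right and Fasn and Scd2 furthest left, and on the right no point is filled.

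After 1 h of KLA none of the 32 genes passed the test (limma-trend with strain as a covariate over 5 libraries), where 1.29% of 10357 models rose and 0.232% fell. At an unadjusted p under 0.05 there were 3, against 1553 of all 10357 models, and on recovered reads with limma-voom 0 passed. The median was -0.03 against -0.15 over all models, and with library medians made equal it turned to 0.10 against -0.01. The gene with the lowest p was Stard4, at 10.3 RPKM with KLA and 6.83 with vehicle in C57Bl/6EiJ, and at 6.68 and 6.53 with KLA and 1.72 with vehicle in Balb/cJ (log2 1.08 ± 0.29, limma adjusted p = 0.166). It was higher with KLA in both strains, and it passed in 1 alternative, a fit over all 13 libraries (limma adjusted p = 0.0491). The Balb/cJ vehicle library held only 12 reads of Stard4. The log2 difference was 0.53 in the C57Bl/6EiJ pair, against 1.50 and 1.47 for the Balb/cJ KLA libraries. Insig2, the second Insig protein, measured 12.8 against 8.15 RPKM in C57Bl/6EiJ and 8.84 and 8.98 against 5.22 in Balb/cJ (0.64 ± 0.23, limma adjusted p = 0.269). Fdps measured 7.48 against 12.1 RPKM in C57Bl/6EiJ and 9.36 and 7.76 against 12.8 in Balb/cJ (-0.57 ± 0.24, limma adjusted p = 0.32). These 2 genes each lay in the same direction in both strains, but with 1 vehicle library per strain a lack of overlap shows nothing. All 5 SREBP pathway genes had a difference above 0, from 0.01 for Scap to 0.64 for Insig2, and each interval but that of Insig2 included 0.

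The Balb/cJ KLA libraries were separated from each other as well. Hmgcs1 measured 58.5 and 40.6 RPKM in them against 27.2 with vehicle, while in C57Bl/6EiJ it measured 26.6 against 24.8 (fit over both strains 0.51, 95% interval -0.20 to 1.23). Within the pairs of libraries that share a date in their titles, 11 of 32 genes were higher with KLA in both strains, 10 were lower in both and 11 went opposite ways. The median difference was 0.05 in the Balb/cJ pair and -0.04 in the C57Bl/6EiJ pair. Of the 20 further lipid genes tested 0 passed (1 at an unadjusted p under 0.05), with Acsl3 (-0.66 ± 0.25) and Ggps1 (-0.44 ± 0.25) lowest in p, and of the 7 LXR genes 0 (1 unadjusted), with Mylip (-0.76 ± 0.28) and Abca1 (0.53 ± 0.26) lowest.

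Between Balb/cJ and C57Bl/6EiJ TGEMs none of the 32 genes passed (limma-trend with treatment as a covariate), where 0.859% of 10357 models were higher in Balb/cJ and 1.45% lower. At an unadjusted p under 0.05 there were 4, against 2213 of all 10357 models, and on recovered reads 1 passed, Insig1. Stard4 averaged 4.98 RPKM in Balb/cJ, where the vehicle library held 12 reads, and 8.58 in C57Bl/6EiJ (-0.98 ± 0.29, limma adjusted p = 0.122). Srebf1 measured 8.16, 13.7 and 13.7 RPKM in Balb/cJ and 19.1 and 20.8 in C57Bl/6EiJ (-0.81 ± 0.26, limma adjusted p = 0.14). Insig1 measured 64.0, 94.8 and 65.1 RPKM in Balb/cJ and 26.7 and 50.0 in C57Bl/6EiJ (0.89 ± 0.30, limma adjusted p = 0.156). The Balb/cJ reads were aligned to a genome of that strain and the strains carry different dates in their titles, so strain, genome and title date cannot be told apart. Fold changes between strains fell with GC content (Spearman's rho -0.454 across 10264 models). Of the 20 further lipid genes 2 were higher in Balb/cJ, Acsl3 (1.86 ± 0.25, limma adjusted p = 0.0135) and Acss2 (1.84 ± 0.32, limma adjusted p = 0.0378), and of the 7 LXR genes 0 passed (3 unadjusted), with Abca1 (-1.26 ± 0.26) and Nr1h3 (-0.97 ± 0.29) lowest in p.

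The difference of the KLA effect between the strains was tested with 1 residual degree of freedom. Of all 10357 models 0% passed in either direction, of the 32 genes 0 passed and 0 had an unadjusted p under 0.05 (limma-trend), against 835 of all models, and on recovered reads with limma-voom 0 passed. Stard4 (0.95, 95% interval -0.23 to 2.14), Msmo1 (1.01, interval -0.66 to 2.68) and Acaca (-0.68, interval -1.87 to 0.50) were lowest in p. Msmo1 measured 70.4 and 44.9 RPKM with KLA against 34.1 with vehicle in Balb/cJ, and 49.2 against 60.9 in C57Bl/6EiJ. Acaca measured 2.02 and 1.37 RPKM against 2.95 in Balb/cJ, and 1.27 against 1.08 in C57Bl/6EiJ. Each of these 3 intervals includes both 0 and a 2-fold difference. None of the 20 further lipid genes and none of the 7 LXR genes passed here (0 at an unadjusted p under 0.05 in either, against the same 835 of 10357 models), with Acss2 (1.15 ± 0.51), Tmem97 (-1.02 ± 0.54), Nr1h3 (0.70 ± 0.55) and Abca1 (0.60 ± 0.48) lowest in p.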

How the data were processed

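PolyA RNA-seq of 13 libraries was analysed (8 iBMDM and 5 TGEM), and the 4 GRO-seq samples of the series were not analysed here. According to the study's methods and the file header, the authors aligned reads with STAR, using mm10 except that Balb/cJ reads went to a strain-specific genome, and counted exons with HOMER, keeping 1 model per gene. The deposited values are RPKM. The strand setting and tool versions are not given in the sources used here. The table holds 24453 models.

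RPKM + 1 was log2-transformed, models whose average in a fit fell below 1 RPKM were dropped, and limma-trend (limma 3.58.1, R 4.3.3) was run with Benjamini-Hochberg adjustment at 0.05. The 8 iBMDM libraries were fitted together by group (4 residual degrees of freedom), the 5 TGEM libraries by treatment and strain (2), with an interaction for the strain difference (1), and the vehicle TGEMs and the iBMDMs by group (5). A fold change is on the log2(RPKM + 1) scale and understates the change of low genes.

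Whole reads and depth were recovered from the RPKM steps, and 100% of values up to 50 reads were whole within 0.05 of a read or the rounding of the file. Counting intervals (exact, 95%) and the limit of 3 reads for a count of 0 come from these reads. The recovered depths were 1553296 to 18444437 reads. The scripts were tested on simulated data. For Atf3KO against Scramble 197 of 200 changed genes were recovered, and for the strain difference of the KLA effect 164 of 200, where 128 unchanged genes were called as well. Unchanged genes were called in every other comparison too, from 2 for Atf3KO against JunDKO to 51 for KLA. They numbered 13 for Atf3KO against Scramble, 28 for JunKO against Scramble, 31 between strains and 21 for vehicle TGEMs.

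Genes were named where they passed, up to 8 per direction by fold change, and otherwise the 3 lowest in p. The gene lists and the genes described were chosen with earlier results of these data known. Alternatives were other pseudocounts (0.5 and 5), filters, scalings, a GC spline, limma-voom, the study's cutoffs (2-fold and a group mean of 16 RPKM), other sets of libraries, a replicate block and leaving out each library. The ratios of read rates were also computed with 1 library left out, an alternative chosen after seeing the data.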

Additional observations from a re-analysis of the deposited data

How the results depend on the processing

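Of 853 alternative values of 55 named results, 719 kept their direction and side of the threshold, 130 lost the call, 4 gained one and 0 reversed. The number of genes past the threshold moved as follows, and the cause was not tested. With the study's cutoffs it was 17 for Atf3KO against Scramble, 11 for JunDKO against Scramble, 1 for JunDKO against JunKO, 6 for Atf3KO against JunDKO and 9 for vehicle TGEMs against Scramble. With limma-voom on recovered reads it was 2 for JunKO, 17 for Atf3KO against JunDKO, 10 for vehicle TGEMs and 1 between strains. GC correction gave 11 for JunKO and 7 for JunDKO against JunKO. Equal library medians gave 12 for JunDKO, and a mean of at least 5 RPKM gave 2 for JunDKO against JunKO. Fitting only the groups compared gave 0 for JunKO and 9 for vehicle TGEMs, and fitting all 13 libraries gave 1 for KLA and 2 between strains. Leaving out 1 library gave 0 to 2 for JunKO, 5 to 9 for JunDKO, 2 in each case for JunDKO against JunKO, 4 to 12 for Atf3KO against JunDKO and 9 to 14 for vehicle TGEMs. The strain difference of the KLA effect could not be fitted with a library left out.

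Deviations of same-numbered libraries from their group means correlated at 0.18 to 0.22 among Scramble, JunKO and JunDKO, and at -0.21 to -0.12 between Atf3KO and each of them, so not every pair exceeded 0.1 and the numbers were not taken as pairs. With a replicate block 26 genes passed for Atf3KO, 0 for JunKO, 15 for JunDKO, 3 for JunDKO against JunKO and 11 for Atf3KO against JunDKO. A crossed replicate block, added after seeing the data, gave 27, 10, 23, 6 and 16 in the same order. Shallow libraries limit the genes with few reads in Scramble, among them Acat2, Fads2, Idi1, Tm7sf2 and Scd1.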
